A study of Mus musculus with 6 samples.

Results

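The cytosolic ribosome is built from ribosomal RNA and a fixed set of proteins, each encoded by its own gene. The mRNAs of these proteins begin with a pyrimidine tract (5′ TOP) through which their translation follows mTOR signalling, and their synthesis is high in growing cells. In striated muscle, Rpl3l, a relative of the large subunit protein Rpl3, is known to be expressed in place of or beside it.

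The genes described here are the cytosolic ribosomal protein genes, found by symbol: Rpl or Rps followed by a number and an optional paralogue letter, plus Rpsa, Rplp0, Rplp1 and Rplp2, without the Rps6k kinases and without symbols that mark a pseudogene. The rule found 86 of the 27179 genes in the table, 53 of the large and 33 of the small subunit. RNA came from C2C12, an established mouse myoblast line. For the 3 myotube libraries, the culture stayed at 100% confluence over 3 days before 5 days in 2% horse serum with an insulin, transferrin, selenium and ethanolamine supplement. The 3 myoblast libraries came from cells below confluence in 10% fetal bovine serum. Both groups grew in high glucose DMEM with 4 mM glutamine. Serum, supplement, density and differentiation differ together between the groups, so their parts cannot be told apart. The labels name no separate cultures, so a p-value here reflects spread among these samples alone, and that spread may be technical.

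Library totals were 7370169, 7795853 and 8339589 counts in myotubes, against 10597186, 11723881 and 10076945 counts in myoblasts. The labels fitted the markers: the 6 markers of differentiated muscle were all higher in myotubes, with summed levels of 8843 to 9735 CPM there and 267 to 285 CPM in myoblasts, and the 5 markers of cycling cells were all lower, at 101 to 111 CPM in myotubes and 1535 to 1543 CPM in myoblasts. CPM are read counts scaled to a common library size after TMM scaling, which aligns libraries on the bulk of their genes. Of 4 markers of reserve and undifferentiated cells, 1 was higher and 2 were lower, and their sum was 206 to 239 CPM in myotubes and 424 to 433 CPM in myoblasts. Pax7, which marks such cells, had 63.8 ± 6.1 CPM in myotubes and 59.2 ± 1.6 CPM in myoblasts (SD, n = 3 each), and did not pass the test (edgeR adjusted p = 0.14). Of 4 bone and fat markers, the 2 that were tested were lower, Adipoq was at 0 in all libraries, and the sum was 49.4 to 53.4 CPM in myotubes and 95.5 to 101 CPM in myoblasts. The part that any of these cell populations has in the results below was not tested.

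The question for these genes was whether their mRNAs move when myoblasts become myotubes. Most moved little, and in both directions. Of the 86 genes, 83 had enough counts to be tested; Rpl10l and Rps4l had 0 counts in all libraries and Rpl39l had 1 count. With edgeR's quasi-likelihood test, adjusted by Benjamini-Hochberg over all 12800 genes tested, 19 were higher in myotubes, 19 were lower and 45 did not pass the threshold of 0.05. Across all genes tested, 40.2% were higher and 39.2% were lower, 79.5% in all, against 38 of 83 or 45.8% of the ribosomal protein genes. Their median log2 fold change was 0.02, as it was for all genes, but the quartiles of the ribosomal protein genes were -0.20 and 0.15, against -0.54 and 0.60 for all genes.

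The size of the changes was small beside that of other genes. Of the 83 genes, 72 or 86.7% had a log2 fold change between -0.5 and 0.5, against 45.8% of all genes tested. Leaving Rpl3l aside, the changes ran from -0.96 for Rps2 to 0.57 for Rps14 and Rpl22. A test against a log2 change of 0.5 (edgeR's glmTreat) called Rpl3l, Rpl22 and Rps14 higher and Rps2 and Rpl27 lower, while it called 23.3% of all genes higher and 21.3% lower. The libraries of the groups did not overlap for 20 genes with myotubes above and 20 with myotubes below, against 40.6% and 39.9% of all genes tested, or 80.5% in either direction. In bulk RNA, a lower level in fewer cells and a lower level in every cell cannot be told apart.

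**Figure D1:**
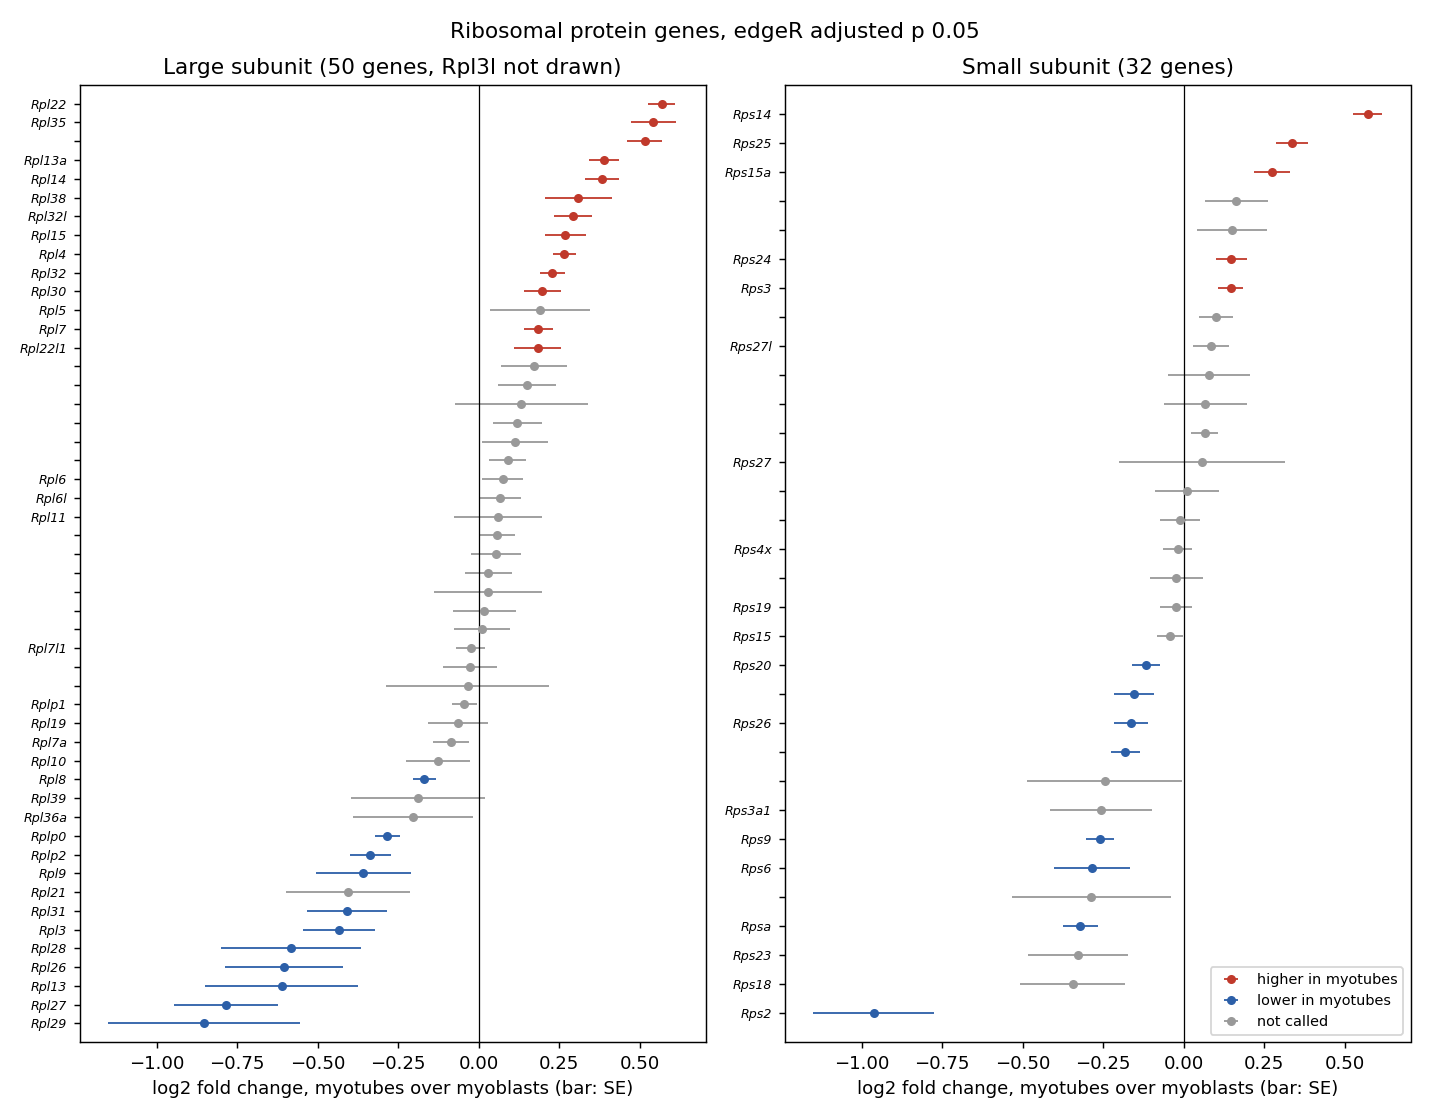
Log2 fold change, myotubes over myoblasts, with its standard error, of each tested ribosomal protein gene by subunit, with the edgeR call in colour. Genes named in the text carry a label, and Rpl3l, at 9.34, is not drawn. Most points lie between -0.5 and 0.5.

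**Figure D2:**
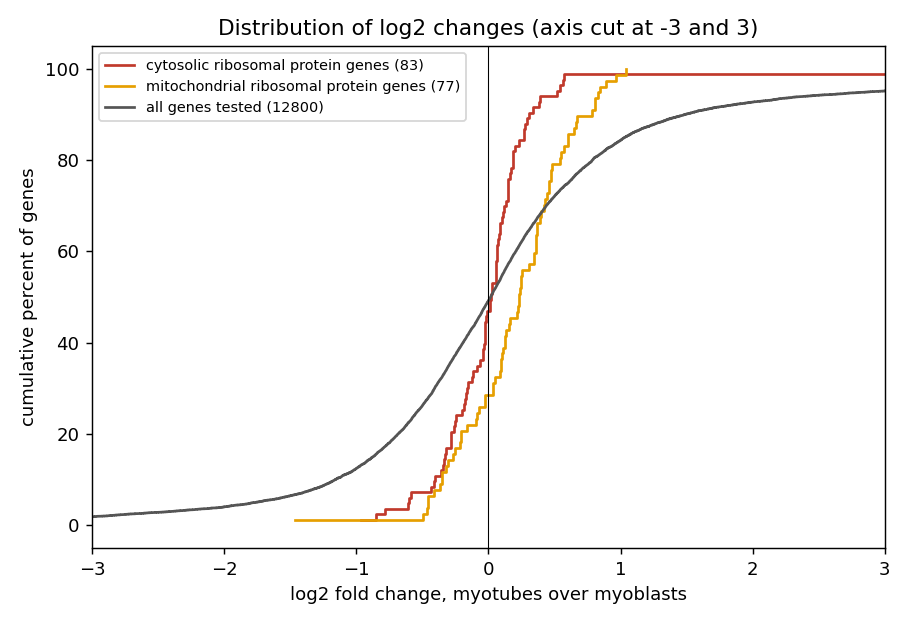
Cumulative share of genes by log2 fold change, myotubes over myoblasts, for cytosolic ribosomal protein genes, mitochondrial ribosomal protein genes and all genes tested; Rpl3l lies beyond the axis. The cytosolic curve is the steepest, with 86.7% of genes within 0.5 of 0, against 45.8% of all genes.

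By level, the share of ribosomal protein genes called was under that of all genes in each class. Below a mean of 10 CPM, 8 of 21 were called, or 38.1%, against 68.8% of all genes at that level. Between 10 and 100 CPM, 13 of 37 were called, or 35.1%, against 80.4%. Above 100 CPM, 17 of 25 were called, or 68%, against 89.3%. The median size of the log2 change above 100 CPM was 0.169 for ribosomal protein genes and 0.498 for all genes. These comparisons are descriptions and were not tested.

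Rpl3l gave the one large change. It had 9.70, 6.63 and 9.47 CPM in the 3 myotube libraries, or 68, 49 and 75 counts, against 0 counts in each myoblast library. All myotube libraries lay above all myoblast libraries, and the level was at least 97.7-fold higher, taking a floor of 3 counts over the myoblast group, which is 0.0881 CPM and covers counting error only. The edgeR test gave an adjusted p of 1.77e-13; the fitted log2 change of 9.34 (SE 0.55) depends on the prior count. Rpl3l (Entrez 66211) lies at chr17:24727826-24736143 of GRCm38.

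Rpl3, which sits near the peptidyl transferase centre, was lower. It had 11.8, 13.4 and 13.9 CPM in myotubes, against 16.3, 17.2 and 19.6 CPM in myoblasts, and the groups did not overlap. The log2 fold change was -0.43 (SE 0.11, edgeR adjusted p = 0.00115; Entrez 27367, chr15:80077781-80083406). Rpl3l counts came to 81.9, 49.5 and 68.2% of Rpl3 counts in myotube libraries 1, 2 and 3, and to 0% in all myoblast libraries. The log2 ratio differed by 8.03 with 0.5 counts added to each gene. Permuting the libraries exactly, two-sided, gave p = 0.1, the smallest that 3 against 3 libraries allow, and 0.175 after adjustment over the 7 pairs tested.

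The level of Rpl3 has a limit that Rpl3l does not share. Of the 50-base windows of its transcript, 85.6% occur exactly in transcripts of 26 other annotated genes, all of them pseudogenes, whereas no window of Rpl3l does. The sources used here do not say how reads with several matches were counted, and copies may lower counts. Per kilobase of transcript, the level in myotubes was 6.26 CPM for Rpl3l and 9.66 CPM for Rpl3. Per kilobase of windows without a copy it was 6.49 CPM for Rpl3l and 69.4 CPM for Rpl3, so the share of Rpl3l in the pair depends on how reads of copied stretches were treated. The coding sequences matched at 896 of 1205 aligned bases, or 74.4%, and share no 50-base window. Their first 90 coding bases are shown because they tell the transcripts apart, with capitals at the 21 bases that differ (GENCODE M21).
Rpl3l: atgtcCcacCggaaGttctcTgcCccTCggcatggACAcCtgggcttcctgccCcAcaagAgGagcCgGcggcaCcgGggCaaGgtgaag
Rpl3: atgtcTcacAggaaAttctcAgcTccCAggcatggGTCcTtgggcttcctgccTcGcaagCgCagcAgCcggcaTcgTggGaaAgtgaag

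The other 6 pairs tested changed less in their ratio. Rpl22l1, which can take the place of Rpl22, had 44.8, 39.4 and 45.2 CPM in myotubes, against 38.7, 35.6 and 39.9 CPM in myoblasts. The groups overlapped, and the log2 fold change was 0.18 (SE 0.07, edgeR adjusted p = 0.0247). That p was 0.0771, 0.102 and 0.134 without myotube library 1, myotube library 3 and myoblast library 2. It was 0.0713 by the DESeq2 Wald test, 0.0975 with no filter on low counts and 0.0767 after thinning to the smallest library, and the log2 change was 0.04 with total counts. Rpl22, an RNA-binding large subunit protein that mice can live without, had 358, 353 and 355 CPM in myotubes, against 235, 233 and 253 CPM in myoblasts. It rose by a log2 fold change of 0.57 (SE 0.04, edgeR adjusted p = 2.02e-12; chr4:152324436-152334082) with no overlap. Rpl22l1 counts were 12.5, 11.1 and 12.7% of Rpl22 counts in myotubes, against 16.5, 15.3 and 15.8% in myoblasts, a log2 ratio difference of -0.39. Of the windows of Rpl22l1, 57.3% are copied elsewhere, against 5.19% of those of Rpl22. These percentages may thus depend on how reads of copied stretches were counted.

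Rpl7, of the large subunit, had 441, 420 and 411 CPM in myotubes, against 364, 353 and 401 CPM in myoblasts (log2 fold change 0.19, SE 0.04, edgeR adjusted p = 0.000539). Its relative Rpl7l1 did not pass, with 118, 112 and 118 CPM in myotubes and 116, 119 and 119 CPM in myoblasts. As a share of Rpl7 counts, Rpl7l1 was 26.8, 26.8 and 28.7% in myotubes and 32.0, 33.6 and 29.8% in myoblasts, a log2 ratio difference of -0.21 with no overlap. Of the windows of Rpl7, 53.3% are copied elsewhere, against 9.19% of those of Rpl7l1. This share too may depend on how reads of copied stretches were counted. Rpl36al, which the symbol rule did not select, had counts of 1807, 1289 and 1254% of those of Rpl36a in myotubes, against 1179, 1219 and 880.0% in myoblasts, a log2 ratio difference of 0.39. Rpl36a itself had 4.00, 4.74 and 4.93 CPM in myotubes and 4.67, 5.04 and 6.12 CPM in myoblasts, and Rpl36al had 72.2, 61.0 and 61.8 CPM in myotubes and 55.1, 61.5 and 53.9 CPM in myoblasts. Of the windows of Rpl36a, 85.5% are copied elsewhere, and 59.5% of those of Rpl36al are shared with the same-strand Gm49383. The size of their ratio may thus depend on how such reads were counted. The Rpl22l1, Rpl7l1 and Rpl36al pairs too had an exact permutation p of 0.1, or 0.175 adjusted over 7 pairs, which this design cannot take lower.

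Rps27l, a gene known as a p53 target, had 104, 90.5 and 98.8 CPM in myotubes, against 90.3, 89.8 and 97.1 CPM in myoblasts. Rps27 had 1.86, 2.71 and 2.91 CPM in myotubes, against 2.16, 2.28 and 2.83 CPM in myoblasts, with 98.6% of its windows copied elsewhere. Neither passed, though Rps27l did without myotube library 2 (edgeR adjusted p = 0.0404), and their log2 ratio differed by 0.04 (exact permutation p = 1). Rpl6l had 44.5, 43.6 and 44.2 CPM in myotubes and 43.1, 40.9 and 42.5 CPM in myoblasts, and Rpl6 had 61.5, 62.1 and 53.8 CPM in myotubes and 57.8, 55.2 and 55.3 CPM in myoblasts; neither passed, though Rpl6 did without myotube library 3 (edgeR adjusted p = 0.0481). Rpl6l shares 61.8% of its windows with Rpl6, so reads of the pair may not be told apart. Rpl32l had 63.5, 71.7 and 67.8 CPM in myotubes and 56.4, 55.5 and 53.8 CPM in myoblasts, and rose with Rpl32, which had 426, 405 and 427 CPM in myotubes and 358, 353 and 361 CPM in myoblasts (log2 fold changes 0.29 and 0.23). Their ratio differed by 0.06 (exact permutation p = 0.4, adjusted 0.56). Rpl32l shares 19.4% of its windows with Rpl32, so part of the reads of this pair may not be told apart. GENCODE annotates Rpl6l, Rpl32l and Rps4l as pseudogenes, whereas RefSeq lists Rpl32l as protein coding. The pairs of Rpl6l and Rpl32l were added after the values were seen.

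The partners of the 3 untested paralogues did not pass the test. Rpl39, partner of Rpl39l, had 4.28, 3.25 and 3.28 CPM in myotubes and 3.95, 3.74 and 4.62 CPM in myoblasts. Rpl10, partner of Rpl10l, had 19.7, 17.9 and 18.4 CPM in myotubes and 19.3, 19.3 and 22.6 CPM in myoblasts. Rps4x, partner of Rps4l, had 139, 135 and 141 CPM in myotubes and 137, 141 and 142 CPM in myoblasts. The groups overlapped for all of them.

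The large subunit had 14 genes higher, 11 lower and 26 not called of 51 tested, with a median log2 fold change of 0.05. Besides Rpl3l and Rpl22, Rpl35, Rpl13a and Rpl14 were among the highest, all without overlap between the groups. Rpl35, which lies near the exit of the peptide tunnel, had 52.5, 48.0 and 45.9 CPM in myotubes, against 34.4, 34.0 and 31.8 CPM in myoblasts (log2 fold change 0.54, SE 0.07, edgeR adjusted p = 1.3e-07; chr2:39001581-39005131). All its myotube libraries lay above all its myoblast libraries.

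Rpl13a, also known for a role in repressing translation of inflammatory mRNAs, had 308, 280 and 297 CPM in myotubes, against 217, 219 and 240 CPM in myoblasts (0.39, SE 0.05, edgeR adjusted p = 2.27e-08). Rpl14 had 166, 143 and 151 CPM in myotubes, against 113, 117 and 122 CPM in myoblasts (0.38, SE 0.05, edgeR adjusted p = 2.38e-07). For Rpl35 and Rpl13a the count carries an annotation limit. Of the windows of Rpl35, 59.0% lie under the opposite-strand gene Wdr38. Copies in genes elsewhere hold 40.1% of the windows of Rpl35, and 55.0% are shared only with genes that overlap it. Of the windows of Rpl13a, 57.4% are shared with the same-strand Gm45713. The sources used here give no strand setting for the counting. Among other genes named, an opposite-strand gene lies over 45.3% of the windows of Rpl5, 33.55% of those of Rps25 and 28.6% of those of Rpl30. Rpl4, which lines the exit tunnel and was named after its values were seen, had 1112, 1157 and 1150 CPM in myotubes and 933, 940 and 971 CPM in myoblasts (0.27, edgeR adjusted p = 3.24e-07). The further genes of the large subunit called higher were Rpl38 at 0.31, Rpl15 at 0.27 and Rpl30 at 0.20.

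The stalk of the large subunit, which recruits elongation factors, is made of Rplp0, Rplp1 and Rplp2. Rplp0 had 824, 757 and 749 CPM in myotubes, against 937, 962 and 936 CPM in myoblasts (log2 fold change -0.28, SE 0.04, edgeR adjusted p = 4.51e-07; chr5:115559467-115563729). Rplp2 had 43.2, 45.6 and 44.5 CPM in myotubes, against 59.0, 56.2 and 53.1 CPM in myoblasts (-0.34, SE 0.06, edgeR adjusted p = 3.62e-05; chr7:141447651-141451359). Both fell with no overlap between the groups. Rplp1 had 383, 381 and 373 CPM in myotubes and 396, 398 and 378 CPM in myoblasts, and its change of -0.04 did not pass (edgeR adjusted p = 0.288).

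The other genes of the large subunit called lower, beyond Rpl3, were mostly of low count. Rpl31, near the tunnel exit, had 9.13, 11.4 and 13.4 CPM in myotubes, against 15.5, 14.5 and 15.4 CPM in myoblasts (-0.41, SE 0.12, edgeR adjusted p = 0.00447), and 37.1% of its windows lie under the opposite-strand gene Tbc1d8. Rpl29, Rpl27, Rpl13, Rpl26, Rpl28 and Rpl9, named after their values were seen, had log2 fold changes of -0.85, -0.79, -0.61, -0.61, -0.58 and -0.36 with mean levels at or below 10.3 CPM in both groups. Rpl8, which lies near the peptidyl transferase centre and had the highest mean level per kilobase at 1209 CPM, had 991, 945 and 969 CPM in myotubes against 1091, 1090 and 1085 CPM in myoblasts. It fell by 0.17 on the log2 scale. Rpl5 and Rpl11, which hold MDM2 when ribosome assembly fails, did not pass. Rpl5 had 8.42, 6.90 and 10.1 CPM in myotubes and 6.65, 7.80 and 7.91 CPM in myoblasts, and Rpl11 had 13.0, 11.4 and 9.47 CPM in myotubes and 10.1, 10.1 and 12.2 CPM in myoblasts.

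**Figure D3:**
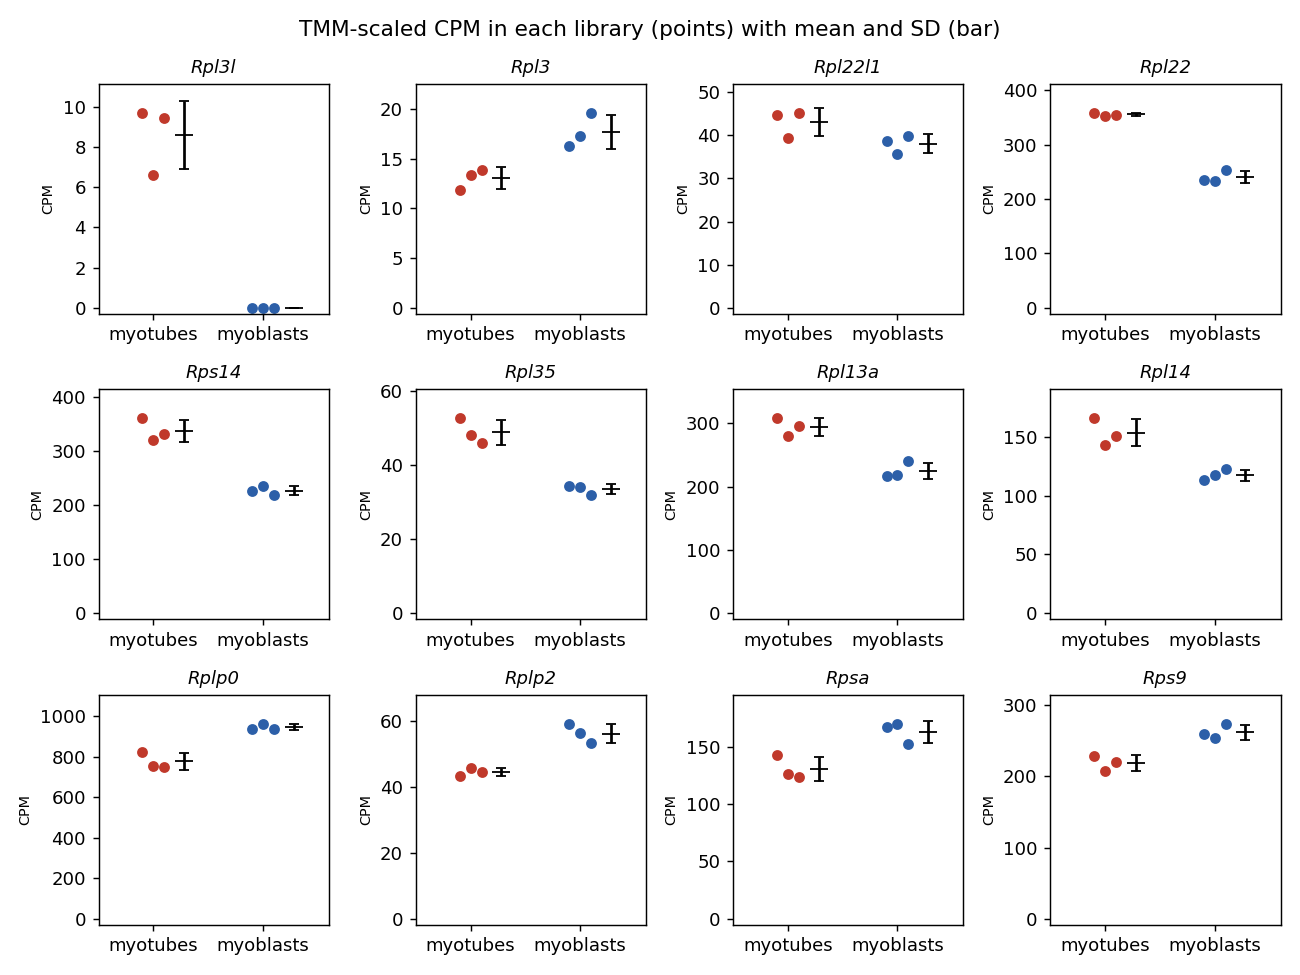
TMM-scaled CPM in each library (points) with mean and SD (bars, n = 3) for 12 ribosomal protein genes, myotubes left of myoblasts, on axes from about 0. Rpl3l is at 0 in all myoblast libraries, and the myotube libraries lie above for Rpl22, Rps14, Rpl35, Rpl13a and Rpl14 and below for Rpl3, Rplp0, Rplp2, Rpsa and Rps9.

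The small subunit had 5 genes higher, 8 lower and 19 not called of 32 tested, with a median log2 fold change of -0.02. Rps14, which stands out among these and whose human gene is the ribosomal protein gene lost in the 5q- syndrome, had 360, 320 and 330 CPM in myotubes, against 226, 235 and 219 CPM in myoblasts (0.57, SE 0.04, edgeR adjusted p = 1.26e-11). The groups did not overlap. The others higher were Rps25 at 0.34, Rps15a at 0.27, Rps24 at 0.15 and Rps3 at 0.15. Rps3, which lies at the mRNA entry of the subunit, had 672, 617 and 658 CPM in myotubes and 572, 590 and 598 CPM in myoblasts.

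Rpsa, also described as the laminin receptor precursor, fell. It had 143, 126 and 124 CPM in myotubes, against 167, 170 and 152 CPM in myoblasts (-0.32, SE 0.05, edgeR adjusted p = 6.8e-06; chr9:120127766-120132369), with no overlap. Rps6, the substrate of S6 kinase, had 11.4, 14.8 and 13.5 CPM in myotubes, against 17.0, 14.6 and 17.1 CPM in myoblasts. The groups overlapped, and the change of -0.28 (SE 0.12) had an edgeR adjusted p of 0.0299; without myotube library 1 it was 0.163, without myoblast library 1 it was 0.0903 and without myoblast library 3 it was 0.0868. The DESeq2 Wald test gave 0.0922.

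Rps2 had the lowest log2 fold change among the tested genes. It had 3.14, 3.11 and 3.92 CPM in myotubes, against 7.19, 5.93 and 6.88 CPM in myoblasts (-0.96, SE 0.19, edgeR adjusted p = 5.17e-05; chr17:24718121-24721927). The groups did not overlap, but the level is low, and 79.0% of its windows are copied in 71 other genes. Rps9, named after its values were seen, had 229, 207 and 221 CPM in myotubes, against 259, 253 and 273 CPM in myoblasts (-0.26). Rps26 and Rps20 were also lower, with log2 fold changes of -0.16 and -0.12.

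Ribosomal protein genes are known for their many processed pseudogenes. The median gene had 48.8% of its 50-base windows copied exactly in another gene's transcript, and 41 of 86 had over 50%, against a median of 0% for 78 mitochondrial ribosomal protein genes, of which 1 had over 50%. Among tested genes, median levels were lower in the classes with more copied windows. The median level per kilobase was 106 CPM for the 8 tested genes with up to 10% of windows copied and 74.4 CPM for the 34 with 10 to 50%. It was 33.3 CPM for the 38 with 50 to 90%, and 10.4 CPM for the 3 above 90%. The lowest single levels in these 4 classes were 3.13, 2.49, 2.58 and 7.11 CPM per kilobase. Across 82 genes, copied share and level per kilobase had a Spearman correlation of -0.42 and copied share and log2 change one of -0.35. Both are descriptions over genes that share libraries and reads. Copied share and level per kilobase also depend on the 1 transcript taken per gene. That of Rps15a had 5179 bases with 6.37% copied, and that of Rps20 had 3706 bases with 7.57% copied.

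Calls also differed by copied share. Of 42 tested genes with up to 50% of windows copied, 16 were higher, 10 lower and 16 not called. Of 41 with over 50%, 3 were higher, 9 lower and 29 not called, and no gene called higher had over 57.3% copied. In the 4 classes of copied share, from least to most copied, the median log2 fold changes were 0.11, 0.11, -0.02 and -0.13. Low counts, which give wide errors, move with the copied share, and the part each has was not tested. Among the exceptions, Rpl28 had 34.5% copied and 2.78 CPM in myotubes against 4.18 CPM in myoblasts. Rpl21 with 26.2% copied had 3.96 and 5.29 CPM, and Rpl39 with 16.5% copied had 3.60 and 4.10 CPM, in the same order. The windows at the middle of 4 coding sequences are shown because they show the copying over 50 bases: in GENCODE M21 transcripts the window of Rps2 occurs in 10 other genes, that of Rpl3 in 1, that of Rplp0 in 3 and that of Rpl22 in 0.
Rps2: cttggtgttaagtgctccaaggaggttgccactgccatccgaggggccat
Rpl3: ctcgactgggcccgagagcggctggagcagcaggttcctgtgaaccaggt
Rplp0: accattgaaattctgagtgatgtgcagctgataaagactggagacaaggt
Rpl22: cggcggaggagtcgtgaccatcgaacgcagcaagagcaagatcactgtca

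**Figure D4:**
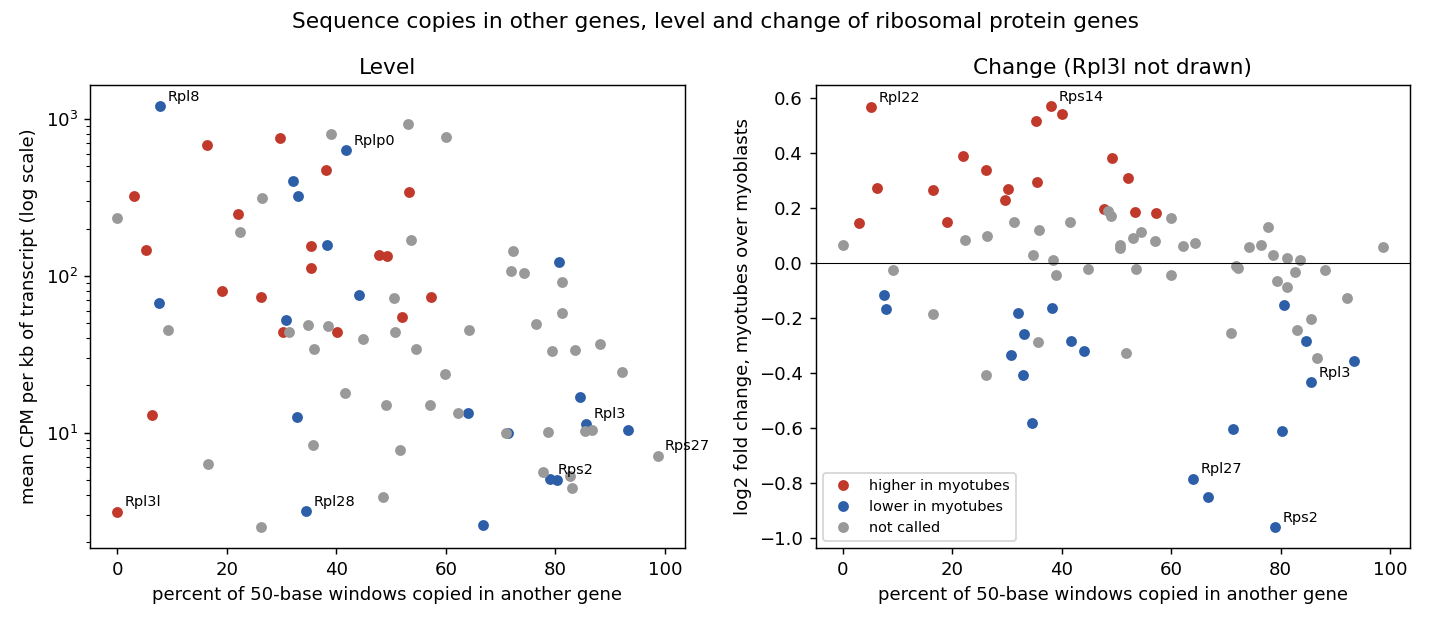
Percent of a gene's 50-base windows found in another gene's transcript against its mean CPM per kilobase (left, log axis) and its log2 fold change, myotubes over myoblasts (right, without Rpl3l), coloured by edgeR call. The genes called higher lie at or below 57.3% copied. Median levels fall with the copied share, but low single levels occur at low shares too, as for Rpl28 at 34.5% copied.

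The summed share of the library in these genes changed direction with the scaling. As a percent of all counts it was 1.01, 0.957 and 0.969% in myotubes (0.978 ± 0.0266) and 1.03, 1.04 and 1.05% in myoblasts (1.04 ± 0.00985, SD, n = 3 each), a difference of -0.0603 percentage points. After TMM scaling the sums were 10601, 10097 and 10210 CPM in myotubes (10303 ± 264) and 9801, 9883 and 9956 CPM in myoblasts (9880 ± 77.6), a difference of 0.0423 percentage points. The groups did not overlap on either scale, and the signs were opposite. The share of counts in the top 10 genes was 7.06 to 7.19% in myotubes and 5.23 to 5.29% in myoblasts, and the TMM factors were 0.949 to 0.952 in myotubes and 1.05 in myoblasts. With total counts in place of TMM, 11 ribosomal protein genes were higher and 32 lower, so that 74.4% of calls were lower, against 50% with TMM. Across all genes tested, 4269 were higher and 5935 lower with total counts, against 5146 higher and 5024 lower with TMM. The median of all genes was then -0.13, and so was that of the ribosomal protein genes.

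On that scale Rpl30, Rpl32, Rpl7, Rps24, Rps3, Rpl15, Rpl38 and Rpl22l1 were no longer called higher, and the value of Rps3 fell to 0.00. Among the genes newly called lower were Rpl10, Rpl19, Rpl21, Rps15, Rps18, Rps19, Rps3a1, Rps4x, Rpl7a, Rplp1, Rpl7l1 and Rps23. DESeq2 size factors gave the same 38 calls as TMM.

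Promoter windows from RefSeq (GRCm38.p6) were found for 64 of the 86 genes. CTTTC, sense strand, stands in the 50 bases before to 30 after the start in 25 of 64, or 39.1%, against 11.6% of mitochondrial ribosomal protein genes, 10.1% of the genes tested and 12% of all genes with a window. CCGGAAG, on either strand of the whole window, stands in 26 of 64, or 40.6%, against 37.7% of mitochondrial ribosomal protein genes, 20.2% of the genes tested and 9.93% of all. CAGCTG, the E-box form bound by muscle regulators, stands in 4 of 64, or 6.25% (Rpl6, Rpl10l, Rpl3l and Rpl35), against 18.2% of the genes tested and 18.3% of all. It reads the same on both strands. A match is a description of letters only. Motif matches were not compared between genes called higher and genes called lower. Windows of 5 genes called higher, chosen after their values were seen, are printed from 50 bases before to 20 after the start. The same window of Rps9, which was called lower, had 0 matches of CTTTC and is not printed. In the printed windows the motif is in capitals: CAGCTG for Rpl3l and CTTTC for the others. Rpl22 is shown at 1 of its 2 listed starts, and Rpl3l likewise.
Rpl3l chr17:24727776-24727845, plus strand: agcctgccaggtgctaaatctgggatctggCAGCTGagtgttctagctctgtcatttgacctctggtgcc
Rpl35 chr2:39005112-39005181, minus strand: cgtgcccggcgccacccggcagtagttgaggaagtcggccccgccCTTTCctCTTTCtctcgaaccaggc
Rpl13a chr7:45128726-45128795, minus strand: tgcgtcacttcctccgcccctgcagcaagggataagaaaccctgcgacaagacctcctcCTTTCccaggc
Rpl4 chr9:64173337-64173406, plus strand: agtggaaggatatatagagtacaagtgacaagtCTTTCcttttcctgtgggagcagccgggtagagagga
Rpl22 chr4:152325676-152325745, plus strand: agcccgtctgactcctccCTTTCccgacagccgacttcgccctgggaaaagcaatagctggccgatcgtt

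Mitochondrial ribosomal protein genes, which build the ribosome of the organelle, moved more. Of 77 tested, 41 were higher, 14 lower and 22 not called, with a median log2 fold change of 0.23 and a median size of 0.354, against 0.171 for the cytosolic genes. Mrps10 had 47.8 ± 2.1 CPM in myotubes and 23.2 ± 1.4 CPM in myoblasts (log2 fold change 1.04, edgeR adjusted p = 2.09e-12), and Mrpl32 rose by 0.97. Mrps6 had 25.4 ± 0.98 CPM in myotubes and 69.8 ± 1.1 CPM in myoblasts (-1.46, edgeR adjusted p = 1.76e-16; SD, n = 3 each), and Mrpl40 changed by -0.50. Of the windows of Mrps6, 32.2% are shared with the same-strand Gm49711, and 24.8% of those of Mrps10 are copied elsewhere. With total counts in place of TMM, 32 mitochondrial genes were higher and 22 lower, with a median of 0.09.

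Among ribosomal proteins outside the symbol rule, Fau rose (0.35) and Rpl36al rose (0.19, but 0.04 and not called with total counts), while Rack1 (0.08) did not pass. Without myotube library 1, myoblast library 1 or myoblast library 3, Rpl36al was not called (edgeR adjusted p = 0.152, 0.0682 and 0.0758). Of 14 other 5′ TOP genes, which share the tract, 7 were higher and 7 lower, with a median of -0.01: Eif3e at 0.74 and Tpt1 at 0.62 were highest, and Nap1l1 at -1.20 and Npm1, a nucleolar chaperone, at -0.92 were lowest. Of 11 regulators of ribosomal protein synthesis, 5 were higher and 4 lower, with a median of 0.10. Eif4ebp1, a repressor of cap-dependent translation, had 242 ± 3.3 CPM in myotubes and 101 ± 2.3 CPM in myoblasts (1.26, edgeR adjusted p = 2.84e-19), and Rps6kb1, the S6 kinase, rose by 0.50, whereas Eif4ebp2 (-0.61) and Tsc1 (-0.26) fell. Of 13 chaperone, assembly and transport genes found among 14 listed symbols, 5 were higher and 4 lower, with a median of 0.01. Ipo7 (0.61) and Aamp (0.47) rose. Rrs1 fell (-0.49), and Grwd1, the chaperone of Rpl3, had 21.1 ± 2.3 CPM in myotubes and 41.6 ± 2.9 CPM in myoblasts (-0.98, edgeR adjusted p = 1.26e-10). Grwd1 and Rpl3 were both lower. With total counts, 3 of the TOP genes were higher and 7 lower, with a median of -0.16. On that scale 4 regulators were higher and 4 lower, with a median of -0.05. Of the chaperone, assembly and transport genes, 4 were then higher and 7 lower, with a median of -0.14.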

How the data were processed

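Poly(A) RNA of 3 myotube and 3 myoblast libraries was extracted with TRIzol and prepared with a stranded mRNA kit, per the labels' protocols. The table the authors deposited holds raw counts with Entrez ID and symbol. The submitters' processing notes name mm10, fastp, STAR and featureCounts; versions, strand setting and treatment of reads with several matches are not stated in the sources used. Groups come from the sample titles, and columns were matched by name.

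Counts were tested with edgeR 4.0.16 in R 4.3.3: filterByExpr (minimum count 10, minimum total 15) kept 12800 of 27179 genes with at least 99.86% of each library's counts, TMM scaling, the robust quasi-likelihood F test, and Benjamini-Hochberg adjustment over all genes tested at 0.05. Replicates differed by more than counting noise (chi-square over its degrees of freedom 1.35 to 3.22). Each library counted as its own sample, though this spread may be technical and cannot show that the cultures were separate. The biological coefficient of variation was 3.56%. The test was checked on simulated data. Alternatives were DESeq2 1.42.0 size factors and Wald test, total counts, TMM without the ribosomal protein genes, limma 3.58.1 voom, other filters, thinning, a replicate block and leaving out each library. Sequence copies were found with Python 3.11.15 as exact 50-base windows, on both strands, of 1 GENCODE M21 transcript per gene (GRCm38, which mm10 names), outside the gene's own locus. Promoters and gene positions come from RefSeq.

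Genes described were the paralogue pairs, Rpsa and the stalk genes, Rpl5, Rpl11, Rps6, the 6 highest and 6 lowest called genes with at least 10 CPM, those that change call with the scaling, those under 10 counts, and in each list the 2 highest and 2 lowest called genes. Members, lists and rule were chosen with earlier results of these data known. Some genes are not reported here by name.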

Additional observations from a re-analysis of the deposited data

How the results depend on the processing

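Against 19 higher and 19 lower ribosomal protein genes and a median log2 change of 0.02, total counts gave 11 and 32 with a median of -0.13. The DESeq2 Wald test gave 18 higher and 12 lower, and no filter gave 17 higher and 24 lower. Restriction to genes with at most 50% of windows copied gave 16 higher and 10 lower, and to at most 10% gave 4 higher and 2 lower. These restrictions were added after the data were seen and hold fewer genes by construction. For the other differences the cause was not tested. The summed share, -0.0603 percentage points on all counts, was 0.0423 with TMM and -0.0195 without genes over 10% copied, and the log2 ratio of Rpl3l to Rpl3, 8.03, was 7.04 with 1 count added. Leaving out each library in turn gave 19 to 21 higher, 15 to 19 lower, medians of -0.02 to 0.04, summed share differences of -0.0752 to -0.0497 and ratio differences of 7.87 to 8.23. A replicate block gave 20 higher and 19 lower, with a median of 0.01. Deviations of same-numbered libraries correlated at -0.00179, 0.0105 and 0.000354, so no shared deviation was seen. This cannot say whether same-numbered libraries had a common origin. Of 657 comparisons with an alternative setting, 615 were labelled unchanged. For single genes this meant called in the same direction in both fits, or called in neither, whatever the sign. For values with no test it meant a move of less than the replicate spread. Counts of calls had a looser limit, a set fold of the main count, under which 24 lower against 19 passed. With 3 libraries a group, genes under 10 CPM have wide errors, and copied genes may be undercounted.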
